A study of Mus musculus with 4 samples.

Results

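Granulosa cells are the somatic cells that surround the oocyte in the ovarian follicle, and Amh, Inha, Inhba, Kitl, Fst, Fshr, Cyp19a1, Gja1 and Foxl2 are genes known for their activity in these cells. The levels of these 9 genes were followed in RNA-Seq libraries made from isolated mouse oocytes. They were chosen by name, with earlier results of these data known, and each has 1 row among the 25587 gene rows of the deposited values.

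The study sequenced total RNA, depleted of ribosomal RNA, from oocytes at successive stages of folliculogenesis. All oocytes came from wild-type C57BL/6 mice (C57BL/6Babr) aged between 5 and 20 days. As the study describes its samples, non-growing oocytes (NGO) were from mice of 5 days, the first growing pool (GO1) from mice of 8 to 14 days, the second growing pool (GO2) from mice of 15 days, and fully grown germinal vesicle oocytes (FGO) from mice of 20 days. Each stage is 1 library from many pooled oocytes, so there was no replicate check of any value, and no p values are given.

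A protocol that marks the second strand with dUTP was used for NGO and FGO, and the ScriptSeq v2 kit for GO1 and GO2. Stage and protocol therefore cannot be told apart when a dUTP library is set against a ScriptSeq library. Log2 changes were computed only from NGO to FGO and from GO1 to GO2. Ratios of RPKM between neighbouring libraries in the order of a gene may cross the protocols and carry this limit. Levels are RPKM, that is reads per kilobase of exon and scaled to a total for the library, on a linear scale. The counts behind them were recovered from the steps of the values and added up on genes to 62374278 in NGO, 72870727 in GO1, 134373292 in GO2 and 69196176 in FGO. At a floor of 3 counts, a gene with 1 kb of exons has an RPKM of 0.0271 in NGO, 0.0237 in GO1, 0.0124 in GO2 and 0.0251 in FGO. All intervals are 95% intervals and cover counting error only, since the protocols name no molecular identifiers and reads of 1 molecule may be counted repeatedly. In each library the recovered counts on genes exceed the uniquely mapped reads and even the raw reads stated in the paper. The fitted library totals, such as 110595208 in NGO, are larger still. As recovered, fragments were thus counted more than once, and intervals from undivided counts are too narrow by an unknown extent. Intervals of the orders, ratios and changes of the 9 genes were therefore also computed with the counts divided by 2 and by 4. Where no divisor is named, statements on counting error use the undivided counts.

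As background, granulosa cells and the oocyte depend on each other throughout growth. Granulosa cells pass small molecules to the oocyte through gap junctions, supply KIT ligand to its KIT receptor, and respond to follicle-stimulating hormone by making inhibins, activins and oestradiol. Anti-Müllerian hormone is a product of granulosa cells of growing follicles and restrains the recruitment of primordial follicles.

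The NGO library stood apart by collagen genes and by Hba-a1, which are given before the results that include it. Col1a1, a chain of type I collagen, had an RPKM of 2.24 in NGO and of 0.0168 to 0.0191 in the other 3 libraries. Hba-a1, a haemoglobin chain, had an RPKM of 0.902 in NGO, 0.0051 in GO2 and 0 in GO1 and FGO. Of 10 stroma and smooth muscle genes, 9 were highest in NGO, while Myh11 was lowest there. Of 8 blood and immune genes, 4 were highest in NGO (Hba-a1, Ptprc, Cd68 and Lyz2), while Alas2 was highest in GO1, Csf1r in GO2 and C1qa in FGO, and Hba-a2 was at 0. By comparison, 9 of 15 oocyte genes were also highest in NGO, and the share of all genes highest there is not given. The part of RNA from other cells in the values below was not tested, and in pooled oocytes a change in the number of other cells and a change in RNA per cell cannot be told apart.

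All 9 granulosa cell genes had reads in every library. At least 3 counts were reached by 9 of 9 genes in NGO, 8 of 9 in GO1, 9 of 9 in GO2 and 9 of 9 in FGO, with Foxl2 in GO1 as the exception. Of all 25587 genes, 21023 had a value above 0 in at least 1 library. The share of all genes with at least 3 counts is not given, so such numbers, here and for the lists below, have no background beside them. The median RPKM over the 9 genes was 0.25 in NGO, 0.167 in GO1, 0.159 in GO2 and 0.318 in FGO, while over all 25587 genes it was 0.153, 0.143, 0.166 and 0.173 in the same order. Over genes with at least 3 counts it was 2.07, 1.54, 1.27 and 1.94, above the median of the 9 in every library. An RPKM over 1 was found for 0 of the 9 in NGO, for 1 in GO1 (Cyp19a1), for 2 in GO2 (Cyp19a1 and Kitl) and for 3 in FGO (Cyp19a1, Kitl and Inha). With counts on genes as the total, it was found for 1 in NGO (Inha, 1.13) and 2 in GO1 (Kitl, 1.40, and Cyp19a1). With the deposited RPKM, levels near 1 were above 60.86% of all genes in NGO (Hba-a1, 0.902) and 63.97% in GO1 (Cyp19a1, 1.08). They were above 62.25% in GO2 (Ptch1, 0.964) and 61.40% in FGO (Upk3b, 0.991). By comparison, the median RPKM of 15 oocyte genes such as Zp2 and Padi6 was 254 in NGO, 329 in GO1, 325 in GO2 and 363 in FGO, and each of the 15 was above 1 in every library.

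**Figure D1:**
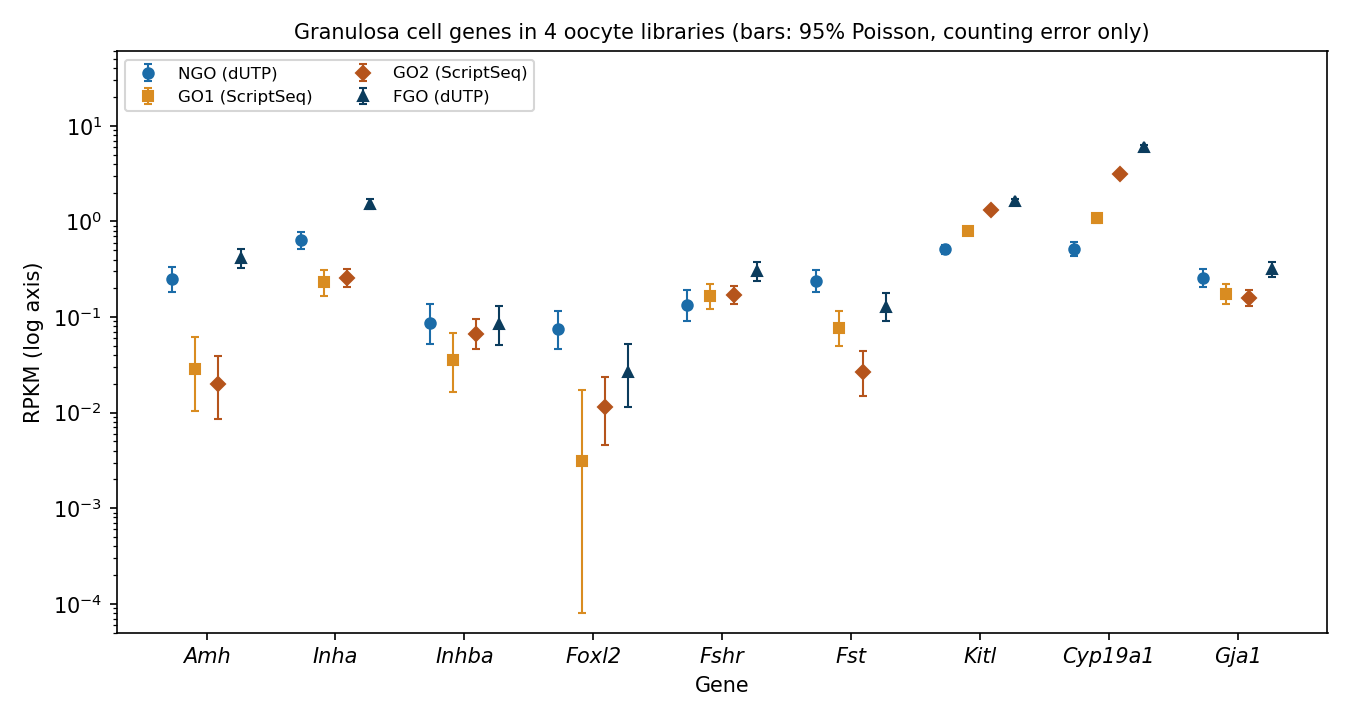
RPKM (log axis) of the 9 granulosa cell genes in the 4 libraries, 1 library per stage, with bars for the 95% Poisson interval of counting error. Kitl and Cyp19a1 are ordered from NGO to FGO, whereas Amh and Inha are lowest in GO1 and GO2.

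Of the hormones and other ligands, Amh, which encodes anti-Müllerian hormone, had the second widest spread between libraries among the 9 genes. Amh (chr10:80805248-80807648, plus strand) had an RPKM of 0.25 in NGO (95% Poisson interval 0.183–0.333), 0.0284 in GO1 (0.0104–0.0619), 0.0199 in GO2 (0.00859–0.0392) and 0.412 in FGO (0.327–0.511), from 46, 6, 8 and 82 counts. Both dUTP libraries were high and both ScriptSeq libraries low, and the intervals of the protocols do not overlap. The ratio of the RPKM in NGO to that in GO1 was 8.79 (3.74–25.2), and GO1 and GO2 did not differ beyond counting error. Within the dUTP protocol, Amh was higher in FGO than in NGO by 0.78 on the log2 scale (0.25–1.34). With the counts divided by 2 this interval nears 0 (0.02–1.59) and that of the RPKM ratio of 1.65 holds 1 (0.966–2.88), and divided by 4 the change holds 0 (-0.32 to 1.97). From GO1 to GO2 it had 14 counts in the pair and stayed under the minimum of 20 used for changes.

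Inha encodes the inhibin alpha subunit, which pairs with a beta subunit to form inhibin, the inhibitor of pituitary follicle-stimulating hormone release. Inha (chr1:75507077-75510366, plus strand) had an RPKM of 0.638 in NGO (0.521–0.772), 0.230 in GO1 (0.166–0.310), 0.258 in GO2 (0.208–0.317) and 1.54 in FGO (1.36–1.74). It was highest in FGO, next in NGO, and low and alike in the growing pools, whose ratio of 1.12 had an interval from 0.774 to 1.65. The log2 change of Inha was 1.34 from NGO to FGO (1.012–1.68) and 0.12 from GO1 to GO2 (-0.41 to 0.68).

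Inhba encodes the beta A subunit, which forms activin A as a homodimer and inhibin A with the alpha subunit. Inhba (chr13:16011851-16027211, plus strand) had an RPKM of 0.0868 in NGO (0.0522–0.135), 0.0358 in GO1 (0.0164–0.0681), 0.0670 in GO2 (0.0458–0.0945) and 0.0844 in FGO (0.0516–0.130), from 80 counts in all. No neighbours in the order NGO, FGO, GO2 and GO1 differed beyond counting error. Its log2 change was 0.03 from NGO to FGO (-0.95 to 1.02), which was not detectable at this depth, and 0.81 from GO1 to GO2 (-0.24 to 2.11). The antisense genes B230303A05Rik and Gm48444 overlap Inhba in the GENCODE annotation. The strand setting of the counting is not given in the sources used here, so their reads cannot be told apart from those of Inhba.

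Kitl encodes KIT ligand, the growth factor that granulosa cells present to the KIT receptor of the oocyte. Kitl (chr10:100015630-100100413, plus strand) had an RPKM of 0.514 in NGO (0.460–0.573), 0.804 in GO1 (0.741–0.872), 1.32 in GO2 (1.26–1.39) and 1.63 in FGO (1.54–1.73). It was higher at each later stage, with no overlap between the intervals of any libraries. The log2 change was 1.73 within the dUTP protocol (1.56–1.92) and 0.67 within the ScriptSeq kit (0.54–0.81). Its receptor gene Kit had an RPKM of 62.2 in NGO, 59.9 in GO1, 43.1 in GO2 and 38.4 in FGO, so that the ratio of Kitl to Kit in RPKM went from 0.00827 in NGO (0.00740–0.00922) to 0.0426 in FGO (0.0401–0.0452).

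Fst encodes follistatin, a secreted protein that binds and neutralises activin. Fst (chr13:114452262-114458730, minus strand) had an RPKM of 0.240 in NGO (0.184–0.308), 0.0776 in GO1 (0.0492–0.116), 0.0266 in GO2 (0.0149–0.0439) and 0.129 in FGO (0.0902–0.178). It was highest in NGO and lowest in GO2, while FGO and GO1 did not differ beyond counting error. The log2 change of Fst was negative in both pairs, at -0.81 from NGO to FGO (-1.46 to -0.21) and -1.51 from GO1 to GO2 (-2.63 to -0.59). With the counts divided by 2 the interval from NGO to FGO holds 0 (-1.75 to 0.06), and by 4 so does that from GO1 to GO2 (-3.94 to 0.55). In GENCODE the gene Gm47040 overlaps Fst by 68 bases on the other strand.

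Fshr encodes the receptor for follicle-stimulating hormone. Fshr (chr17:88985170-89200612, minus strand) had an RPKM of 0.135 in NGO (0.0916–0.191), 0.167 in GO1 (0.121–0.224), 0.171 in GO2 (0.137–0.212) and 0.302 in FGO (0.237–0.378). FGO was above GO2 by a ratio of 1.76 (1.27–2.43), whereas GO2, GO1 and NGO followed each other without a difference beyond counting error. The log2 change was 1.21 from NGO to FGO (0.61–1.88, or -0.04 to 2.66 with the counts divided by 4) and -0.01 from GO1 to GO2 (-0.55 to 0.55).

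Cyp19a1 encodes aromatase, the enzyme that converts androgens to oestrogens, and had the widest range in RPKM units among the 9 genes. Cyp19a1 (chr9:54165937-54193442, minus strand) had an RPKM of 0.518 in NGO (0.435–0.613), 1.08 in GO1 (0.969–1.21), 3.13 in GO2 (2.99–3.28) and 6.08 in FGO (5.79–6.37), from 136, 326, 1792 and 1725 counts. It was higher at each later stage with no overlap of intervals, and its RPKM in FGO was above that of 80.04% of all genes of that library. The log2 change was 3.61 from NGO to FGO (3.37–3.88) and 1.48 from GO1 to GO2 (1.32–1.66).

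Gja1 encodes connexin 43, the main gap junction protein between granulosa cells. Gja1 (chr10:56377300-56390419, plus strand) had an RPKM of 0.259 in NGO (0.208–0.319), 0.175 in GO1 (0.136–0.222), 0.159 in GO2 (0.132–0.190) and 0.318 in FGO (0.263–0.380). The dUTP libraries lay above the ScriptSeq libraries, although the intervals of NGO and GO1 overlap, with a ratio of 1.48 (1.07–2.06) between them that is within counting error if the counts are divided by 2 (0.927–2.38). The log2 change was 0.36 from NGO to FGO (-0.05 to 0.78) and -0.18 from GO1 to GO2 (-0.63 to 0.26), neither of which was detectable at this depth. Gja4, the connexin 37 gene of the oocyte side, had an RPKM of 101 in NGO, 53.2 in GO1, 58.0 in GO2 and 151 in FGO. The ratio of Gja1 to Gja4 in RPKM lay between 0.00210 in FGO (0.00174–0.00252) and 0.00329 in GO1 (0.00256–0.00417).

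Foxl2 encodes a forkhead transcription factor that maintains granulosa cell identity, and was the gene with the fewest counts of the 9. Foxl2 (chr9:98955607-98958126, plus strand) had 21 counts in NGO, 1 in GO1, 7 in GO2 and 8 in FGO, or an RPKM of 0.0753 (0.0466–0.115), 0.00313 (7.92e-05–0.0174), 0.0115 (0.00463–0.0237) and 0.0265 (0.0115–0.0523), respectively. NGO was above FGO by a ratio of 2.84 (1.21–7.41), while FGO, GO2 and GO1 followed each other without a difference beyond counting error. The log2 change from NGO to FGO was -1.33 (-2.82 to -0.20). With the counts divided by 2 this difference lies within counting error (-3.55 to 0.34). With 8 counts in GO1 and GO2 together, Foxl2 was under the minimum of 20 for this pair, and its change there is plotted but not counted.

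Set against all genes, 1 of the 9 passed 4-fold from NGO to FGO. This was Cyp19a1, beside 8.63% of 15275 genes (20 counts or more in NGO and FGO together) that were at least 4-fold higher in FGO. None of the 9 was at least 4-fold lower, beside 5.5% of genes. From GO1 to GO2 the minimum was met by 7 of the 9, with Amh and Foxl2 below it, and 0 of these 7 were at least 4-fold higher, beside 1.5% of 15753 genes, or at least 4-fold lower, beside 0.254%. These shares at 4-fold are near the background. At 2-fold, 4 of the 9 were higher from NGO to FGO (Inha, Fshr, Kitl and Cyp19a1), beside 18% of genes, and 1 lower (Foxl2), beside 16.5%, and 1 of 7 was higher from GO1 to GO2 (Cyp19a1), beside 6.79%, and 1 lower (Fst), beside 2.96%. With changes of log2(RPKM + 0.1) instead, Fshr, Foxl2 and Fst no longer passed 2-fold in these pairs. The median log2 change was 0.78 over the 9 genes from NGO to FGO, beside 0.01 over all genes tested, and 0.12 over the 7 genes from GO1 to GO2, beside 0.01.

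**Figure D2:**
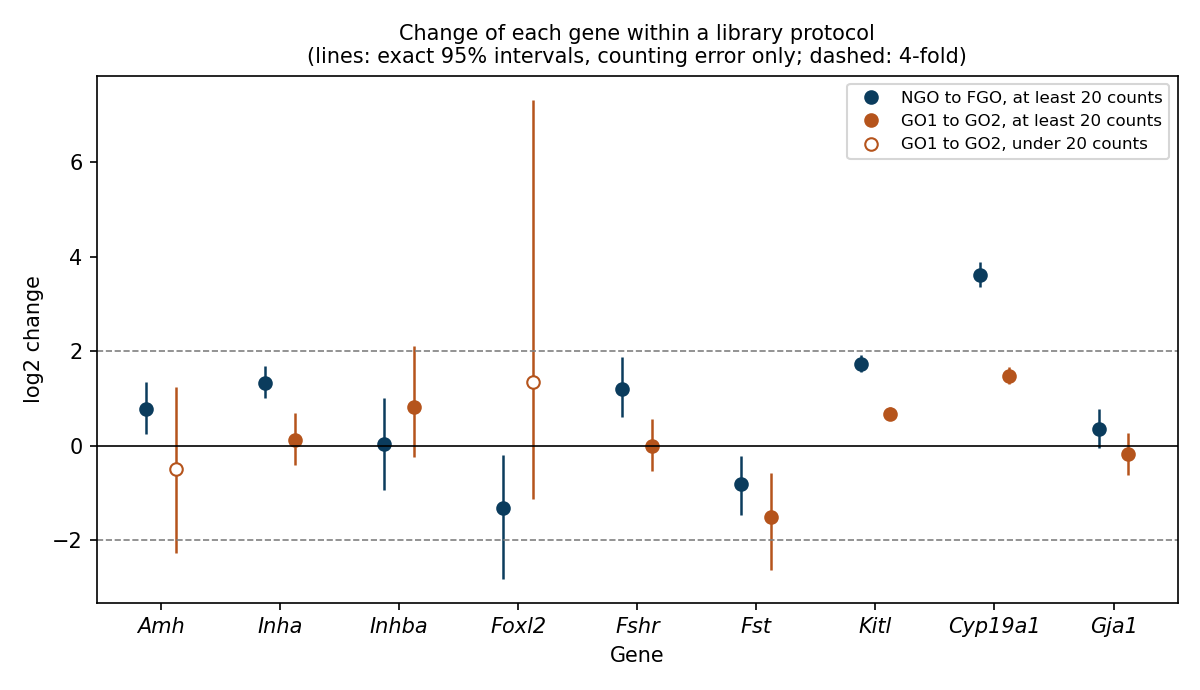
Log2 change of the 9 genes from NGO to FGO and from GO1 to GO2 (vertical axis), with lines for exact 95% intervals of counting error; open circles mark pairs with under 20 counts and dashed lines 4-fold. Cyp19a1 from NGO to FGO, at 3.61, is the point beyond 4-fold.

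The order of the libraries divided the 9 genes. After the values had been seen, the genes were counted whose RPKM was above both ScriptSeq libraries in both dUTP libraries. This held for 6 of 9 genes (Amh, Inha, Inhba, Fst, Gja1 and Foxl2), beside 29.7% of the 16689 genes with at least 20 counts over the 4 libraries. The reverse order held for 0 of 9, beside 21.4%. Without NGO, the library with the highest collagen and Hba-a1 levels, FGO was above GO1 and GO2 for 9 of 9 genes, beside 48.7%. Without FGO, NGO was above GO1 and GO2 for 6 of 9, beside 47.7%. Within these orders, FGO and the next lower ScriptSeq library did not differ beyond counting error for Inhba, Fst and Foxl2. Fshr, Kitl and Cyp19a1 instead had an RPKM that was higher at each later stage, as had 11.3% of the 16689 genes. For Fshr, of these steps only that from GO2 to FGO was beyond counting error, and with the counts divided by 4 none was. For the 6 genes, stage and library protocol cannot be told apart. The same holds for the steps from NGO to GO1 and from GO2 to FGO of Fshr, Kitl and Cyp19a1.

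The 9 genes also did not keep 1 order among themselves. In NGO, Inha, Cyp19a1 and Kitl led in RPKM and did not differ from each other beyond counting error. In GO1 and GO2 the order began with Cyp19a1 and Kitl, and in FGO Cyp19a1 led, followed by Kitl and Inha, which did not differ from each other. Foxl2 was lowest in all 4 libraries, although its difference from Inhba in NGO and from Amh in GO2 lay within counting error, and with the counts divided by 2 also those from Amh in GO1 and from Inhba in FGO. These differences were computed only between neighbours in the order. The intervals of Foxl2 also overlapped those of other genes, such as Fshr in NGO and Fst in GO2. Cyp19a1 made up 19.1% of the summed RPKM of the 9 genes in NGO, 41.6% in GO1, 60.6% in GO2 and 57.7% in FGO. The summed RPKM was 2.72 in NGO, 2.60 in GO1, 5.17 in GO2 and 10.5 in FGO, and without Cyp19a1 and Kitl it was 1.68, 0.717, 0.713 and 2.81 in that order.

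Ratios within a library do not depend on the library total, and Inha served as the denominator. The ratio of Cyp19a1 to Inha in RPKM was 0.813 in NGO (0.625–1.06), 4.71 in GO1 (3.42–6.64), 12.1 in GO2 (9.82–15.1) and 3.94 in FGO (3.47–4.50). NGO lay below the other 3 libraries and GO2 above them, although with the counts divided by 4 the intervals of GO1 and GO2 overlap. The ratio of Kitl to Inha was 0.807 in NGO (0.645–1.02), 3.50 in GO1 (2.57–4.89), 5.12 in GO2 (4.15–6.39) and 1.06 in FGO (0.928–1.21), so that the growing pools were high. For Kitl the intervals of GO1 and GO2 overlap, as do those of NGO and FGO. The ratio of Amh to Inha was 0.392 in NGO (0.271–0.560), 0.124 in GO1 (0.0430–0.292), 0.0770 in GO2 (0.0323–0.158) and 0.267 in FGO (0.206–0.343). For Amh the interval of GO1 overlaps those of NGO and FGO, while that of GO2 lies below both, though with the counts divided by 2 it reaches that of FGO. The ratio of Fst to Inha was 0.376 in NGO (0.270–0.520), 0.338 in GO1 (0.194–0.573), 0.103 in GO2 (0.0554–0.179) and 0.0835 in FGO (0.0573–0.119), where NGO overlaps GO1 and GO2 overlaps FGO. With the counts divided by 2, the Fst intervals of GO1 (0.150–0.722) and GO2 (0.0406–0.225) overlap as well. The ratio of Cyp19a1 to Amh reached from 2.07 in NGO (1.47–2.96) to 157 in GO2 (79.6–365). The 9 genes were thus not present in constant proportions across the 4 libraries, and between dUTP and ScriptSeq libraries stage and protocol cannot be told apart for these ratios either. Whether their reads came from granulosa cell RNA or from the oocyte was not tested.

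**Figure D3:**
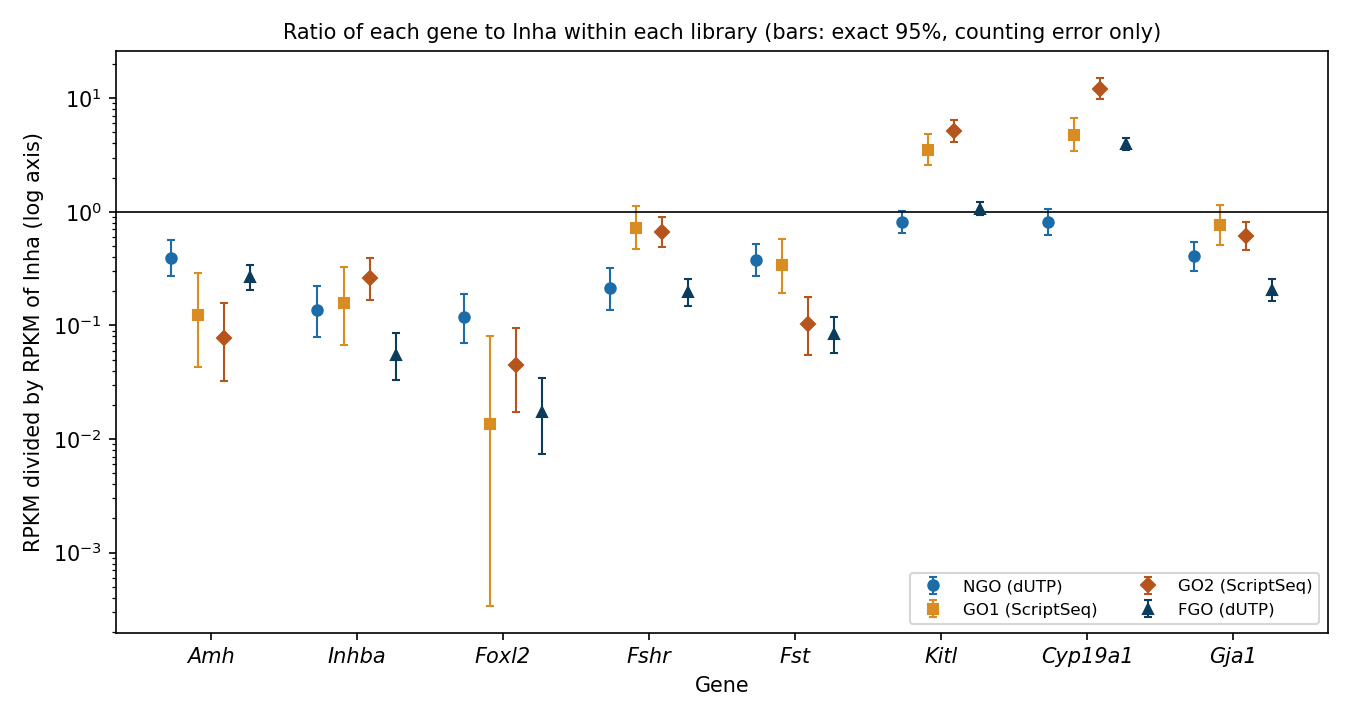
RPKM of 8 genes divided by the RPKM of Inha in the same library (log axis), with bars for exact 95% intervals of counting error; the line marks equal RPKM. Cyp19a1 and Kitl are highest in GO2, at 12.1 and 5.12, and lowest in NGO. For Kitl the intervals of GO1 and GO2 overlap, as do those of NGO and FGO.

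A further 16 granulosa cell genes were read in the same way. At least 3 counts were found for 15 of 16 in NGO, 15 in GO1, 14 in GO2 and 15 in FGO, and their summed RPKM was 38.5, 37.1, 42.7 and 52.0, or 8.56, 17.8, 21.9 and 29.9 without Serpine2. Serpine2 was the most abundant in each library, at 29.9 in NGO, 19.3 in GO1, 20.8 in GO2 and 22.1 in FGO, and Slc38a3 was at 0 in NGO and GO2. The type 2 receptor of anti-Müllerian hormone, Amhr2, resembled Amh in the order of protocols, with an RPKM of 0.397 in NGO, 0.0394 in GO1, 0.0310 in GO2 and 0.225 in FGO. That order held for 7 of the 14 with 20 counts or more over the 4 libraries, beside 29.7% of all such genes, and Amhr2 was picked after its values were seen. Of the 16, 12 had at least 20 counts from NGO to FGO, of which 4 were at least 4-fold higher in FGO (Hsd17b1, Esr2, Gata4 and Emx2) and 1 at least 4-fold lower (Wt1), beside 8.63% and 5.5% of all genes. Esr2, the oestrogen receptor beta gene, had an RPKM of 2.24 in NGO, 4.38 in GO1, 6.59 in GO2 and 14.8 in FGO, and the ratio of Cyp19a1 to Esr2 lay between 0.232 in NGO (0.192–0.278) and 0.475 in GO2 (0.450–0.501). Gata4 had a log2 change of 2.50 (2.31–2.71), Hsd17b1 of 2.29 (1.65–3.12), Emx2 of 3.67 (3.19–4.28) and Wt1 of -2.84 (-3.80 to -2.13). From GO1 to GO2, 0 of 12 passed 4-fold in either direction, beside 1.5% and 0.254%.

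Markers of other ovarian cells were listed beside the 9 genes, and their calls stand against the same shares of all genes, of which 8.63% were 4-fold higher and 5.5% lower from NGO to FGO, and 1.5% and 0.254% from GO1 to GO2. Of 10 stroma and smooth muscle genes, 10 had at least 3 counts in NGO, 9 in GO1, 8 in GO2 and 6 in FGO. Myh11 was the most abundant, at an RPKM of 5.53, 11.02, 13.9 and 13.3, and without it the list summed to 5.96 in NGO, 0.256 in GO1, 0.273 in GO2 and 0.247 in FGO. Col1a1, Col1a2, Col3a1, Dcn, Acta2 and Tagln, 6 of 8 tested, were at least 4-fold lower in FGO than in NGO, and Lum was at 0 outside NGO. Of 8 theca and steroidogenic genes, 4, 5, 7 and 5 had 3 counts, with a summed RPKM of 3.16, 1.80, 1.78 and 1.89, Ptch1 the most abundant and Insl3 at 0 in all libraries. Cyp11a1, which encodes the cholesterol side chain cleavage enzyme, passed 4-fold in both pairs, as 1 of 5 tested in each, under 100 counts in each, with a log2 change of 5.03 (3.47–11.33) from 1 count in NGO to 66 in FGO and of 3.17 (1.62–6.64) from 2 counts in GO1 to 46 in GO2. Of 5 endothelial genes, 4, 3, 3 and 3 had 3 counts. Their summed RPKM was 3.37, 7.22, 11.1 and 12.4, or 1.63, 2.07, 2.87 and 2.73 without Pecam1. Pecam1 led and was at least 4-fold higher in FGO than in NGO, as 1 of 3 tested. Emcn was at 0 throughout, while Cdh5 was highest in NGO, at 0.0408, and at 0 in GO2 and FGO. Of 5 surface epithelium genes, 5, 3, 3 and 3 had 3 counts. Their summed RPKM was 0.356, 0.688, 0.927 and 1.03, or 0.117, 0.0159, 0.0352 and 0.0425 without Upk3b. Upk3b led and was at least 4-fold higher in FGO than in NGO, as 1 of 2 tested, but not with totals on genes as the scaling. Msln and Krt19 were at 0 outside NGO. Of 8 blood and immune genes in the table, 6, 3, 5 and 4 had 3 counts, with a summed RPKM of 1.75, 0.584, 0.685 and 0.388. Hba-a1 led in NGO and Cd68 elsewhere, Hba-a2 was at 0 throughout, Hba-a1, as 1 of 4 tested, was at least 4-fold lower in FGO than in NGO, and Csf1r, as 1 of 2, passed 4-fold from 3 counts in GO1 to 58 in GO2, with a log2 change of 3.04 (1.68–5.62). The 15 oocyte genes summed to an RPKM of 11105 in NGO, 6951 in GO1, 6452 in GO2 and 6689 in FGO, and Figla alone of the 15 was at least 4-fold lower in FGO than in NGO. The part of these cells in the levels of the 9 genes was not tested.

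Receptors, signal transducers and other partners of the 9 genes made a list of 28. In FGO alone, 16 of the 28 had an RPKM over 1, where a level of 0.991 lay above 61.40% of all genes. In at least 1 library, 17 of the 28 had an RPKM over 1, a number without a share of all genes beside it. Among receptors for activin and related ligands these were Bmpr1a (8.58–11.04), Bmpr1b (10.5–19.0), Acvr1b (13.0–23.5), Acvr2a (2.27–3.86), Acvr2b (0.948–2.18) and the inhibin coreceptor gene Tgfbr3 (1.90–5.57), each with its lowest and highest RPKM. Their transducers Smad1 (1.85–2.28), Smad2 (23.2–28.1), Smad3 (15.6–28.9), Smad4 (15.1–19.9) and Smad5 (2.81–6.67) were all present, as were Gnas (9.31–17.5) and Esr1 (6.41–9.69). Of the 23 partners with at least 20 counts from NGO to FGO, 2 were at least 4-fold higher in FGO (Gja5 and Esr2) and 1 at least 4-fold lower (Gjc1, from an RPKM of 1.003 to 0.179), which is near the 8.63% and 5.5% of all genes. From GO1 to GO2, 0 of 23 passed 4-fold, beside 1.5% and 0.254%. Gja5, a connexin gene, had an RPKM of 0.0228 in NGO and 0.156 in FGO. Inhbb, the other inhibin beta subunit gene, had an RPKM of 0.217 in NGO, 0.0723 in GO1, 0.0818 in GO2 and 0.275 in FGO, which is the order of protocols seen for Inha and was found in 6 of the 25 partners with 20 counts or more over the 4 libraries, beside 29.7% of all such genes. The ratio of Inha to Inhbb was 2.94 in NGO (2.22–3.90), 3.18 in GO1 (2.01–5.04), 3.16 in GO2 (2.32–4.30) and 5.60 in FGO (4.55–6.92).

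Reads of adjacent genes may not be told apart from those of a member. Within 5 kb, the table holds Sf3a2, which ends 323 bases before Amh on the same strand, with an RPKM of 2.99 in NGO, 2.48 in GO1, 1.98 in GO2 and 2.49 in FGO. The ratio of Amh to Sf3a2 in RPKM was 0.0835 in NGO (0.0607–0.112), 0.0114 in GO1 (0.00419–0.0250), 0.01003 in GO2 (0.00432–0.0198) and 0.165 in FGO (0.130–0.208), so Amh varied more than its neighbour. Jsrp1, on the other side of Amh, had an RPKM between 0.00868 and 0.0330. Obsl1, 624 bases from Inha on the other strand, had an RPKM of 0.167 in NGO, 0.0512 in GO1, 0.0411 in GO2 and 0.149 in FGO, and like Inha it was higher in the dUTP libraries.

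Genes with the pattern most like each member were sought over the 4 libraries, by the largest absolute difference of centred log2 RPKM, among genes with at least 50 counts. The nearest to Cyp19a1 were Piwil1 (difference 0.08), Dnajc5b (0.08) and Epsti1 (0.09), and Piwil1 had an RPKM of 0.296 in NGO, 0.600 in GO1, 1.73 in GO2 and 3.64 in FGO. The nearest to Kitl were Il9r (0.06), Nrap (0.06) and 4930566F21Rik (0.07). Those nearest to Inha were Trip10 (0.12), Mfng (0.20) and Isoc2a (0.24), and those nearest to Amh were 4732465J04Rik (0.31), Gm17613 (0.38) and Gm9307 (0.53). The nearest to Inhba were Gm7120 (0.03), Map3k9 (0.05) and Ccdc157 (0.07), to Fshr C330018D20Rik (0.03), AC174742.1 (0.05) and Sp100 (0.09), to Fst Vma21-ps (0.27), Etnk2 (0.29) and Glb1l3 (0.29), and to Gja1 Fastkd3 (0.05), Gemin7 (0.07) and Tmed9 (0.07). Foxl2, with 37 counts, was not entered. No member was among the 3 nearest genes of another. All these differences are smaller than the widest counting error of the member itself, 0.16 for Kitl to 1.45 for Amh on the log2 scale, so the ranking is not resolved. Genes closer than 0.5 numbered 2 for Amh, 15 for Fst, 61 for Inha, 127 for Cyp19a1, 911 for Kitl, 1668 for Fshr, 1840 for Inhba and 2556 for Gja1, of 15247.

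Promoter windows were searched for every member. RefSeq windows on GRCm38.p6, of which the 250 bases before the annotated start were used, were found for 7 of the 9 genes (9 windows), and not for Amh and Fst. AGGTCA, the motif read by NR5A1 and NR5A2, was searched on both strands with TGACGTCA, the cAMP response element, and TATAAA, the TATA box. AGGTCA was found in 2 of the 9 windows, of Inha and Cyp19a1, beside 14.02% of 32851 windows, TGACGTCA in 0, beside 1.55%, and TATAAA in 4, of Cyp19a1, Kitl and Inhba, beside 12.4%. Cyp19a1 has windows at different RefSeq starts, so it counts repeatedly among the 9 windows and among the 4 with TATAAA. The AGGTCA match of Cyp19a1 precedes a RefSeq start that lies outside the span given for its row, and the window nearest to that span holds none. The TATAAA matches of Cyp19a1 also precede RefSeq starts outside that span. The matches of Inha, 69 bases before the RefSeq start, and of Kitl, 25 bases before it, are shown because these genes represent the different orders of libraries, with the motif in capitals. Both stretches lie inside the spans given above for their rows, since these begin upstream of the RefSeq start, and a match is a description of the letters only.
Inha (chr1:75507528-75507557, plus strand): ttggggattggcAGGTCAactttgaagagt
Kitl (chr10:100015784-100015813, plus strand): gggagggagctgTATAAAaagcgctggcgg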

How the data were processed

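RNA-Seq of 4 libraries (NGO, GO1, GO2 and FGO) was analysed. Per the submitters' processing notes, reads were trimmed with Trim Galore 0.2.8 and mapped to GRCm38 with TopHat2 2.0.9. The deposited values are RPKM computed by the authors for 25587 genes, although they are named as read counts; the annotation, counting program and strand setting are not given in the sources used here. Library totals were fitted so that RPKM × length × total was whole (tolerance 0.02) for genes matching a GENCODE M21 transcript with 1 exon, and 99.4% to 99.7% of these values per library came out whole. Exon lengths were the GENCODE exon union, a transcript length, or the smallest length giving whole counts in each library (tolerance 0.0005). For Fst, Kitl and Gja1 the smallest length was used, and their counts may be too small by a constant factor. For 19 genes no length made the counts whole and the counts were rounded.

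Changes are log2 ratios of counts with a prior count of 1, with libraries scaled by trimmed-mean log ratios (30% of ratios and 5% of means trimmed at each end), for at least 20 counts in the pair and a 4-fold threshold. Intervals are exact Poisson intervals, or exact conditional (Clopper-Pearson) intervals for ratios of counts, without the prior; dividing the counts by 2 and by 4, and the alternatives for the marker lists and for levels over 1, were added after the data were seen. The count recovery and the changes were tested on simulated data. No test between stages was possible with 1 library per stage. The genes named were the 9 members, genes within 5 kb, the most abundant, absent and 4-fold changed genes of each marker list, partners above an RPKM of 1 or past 4-fold, and the 3 nearest genes in pattern. Amhr2 and Inhbb among the partners, and the genes with an order of protocols, were singled out after their values were seen. So were Nr5a2, Msln, Krt19 and Cdh5 among the marker lists. The members and lists were chosen with earlier results of these data known. Alternatives were other scalings, totals, minimums, thresholds, priors, pseudocounts, lengths and distances, and thinning to the smallest library. Python 3.11.15, numpy 2.4.6, pandas 2.3.3, scipy 1.17.1 and matplotlib 3.10.9 were used.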

Additional observations from a re-analysis of the deposited data

How the results depend on the processing

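With 2-fold in place of 4-fold, 4 genes were higher (18% of all genes) and 1 lower (16.5%) from NGO to FGO, and 1 was higher (6.79%) and 1 lower (2.96%) from GO1 to GO2. The numbers of the 9 genes past 4-fold were equal under the other scalings, count minimums and lengths tried. In the other lists, Upk3b was lost with totals on genes, and Cyp11a1, Acta2, Tagln, Hba-a1, Csf1r and Gja5 with at least 100 counts; with no minimum, sparse genes were added. With counts on genes as the total, 1 gene in NGO and 2 in GO1 were over an RPKM of 1. The number of genes with at least 3 counts moved by less than 1.5 times under minimums of 10 and 1 and under thinning. With a trimmed-mean scaling of RPKM, chosen as an alternative for the protocol comparison after seeing the data, both dUTP libraries stayed above both ScriptSeq libraries in 6 of 9 genes, beside 24.9% of all genes. Of 36 levels, this scaling moved 5 beyond their counting intervals, all upwards, and counts on genes as the total, which multiply every level of a library by 1.73 to 1.80, moved 30, all upwards. With log2(RPKM + 0.1), the changes of Kitl (1.497) and Cyp19a1 (3.32) from NGO to FGO and of Fst from GO1 to GO2 (-0.49) moved beyond their intervals towards 0; those of Foxl2 (-0.47) and Fshr (0.77) from NGO to FGO and of Inhba from GO1 to GO2 (0.30) also shrank, and Foxl2, Fshr and Fst then pass 2-fold no longer. The scaling factor used shifted all changes from NGO to FGO against totals on genes, its log2 value being -0.11. No paired analysis was possible because each stage has 1 library. With the counts divided by 2 and by 4, 12 and 9 of 27 steps between neighbouring libraries of a gene were beyond counting error, in place of 15; 10 and 9 of 32 steps between neighbouring genes of a library, in place of 15; and 8 and 5 of 18 log2 changes, in place of 10. Depth limits Foxl2, Amh, Fst and Inhba in GO1 and GO2.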
